A study of Mus musculus with 8 samples.

Results

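The 10 genes described here encode the cytoplasmic kinases, adaptors and effectors of the pre-B cell receptor: Blk, Lyn, Syk, Btk, Blnk, Plcg2, Vav1, Prkcb, Dok3 and Ptpn6. An accessible region was counted to a gene when that gene had the nearest protein-coding span, at most 100 kb from the centre of the region. There were 113 such regions of 54239 in the EBF1-dTAG_C line and 113 of 55193 in the EBF1-dTAG_N line. Merged where they overlapped, these were 130 distinct regions, of which 92 were present in both tables, 17 in EBF1-dTAG_C alone and 21 in EBF1-dTAG_N alone. All 10 genes had regions in both lines, from 4 to 26 per gene in EBF1-dTAG_C and from 3 to 24 in EBF1-dTAG_N.

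Accessibility was measured by ATAC-seq, in which Tn5 transposase cuts open chromatin, in pro-B cells of the mouse that Abelson murine leukaemia virus (A-MuLV), a carrier of the v-Abl kinase, had transformed. In all groups exogenous modified EBF1 stands in for the endogenous factor, and the line names give it a dTAG degron, through which the small molecule dTAG-13 sends a tagged protein to the proteasome. The 4 groups were EBF1-dTAG_C with DMSO, EBF1-dTAG_C with dTAG-13, EBF1-dTAG_N with DMSO and EBF1-dTAG_N with dTAG-13, with 2 libraries each and 6 h of treatment (dTAG-13 at 0.5 uM); the titles of the DMSO libraries give 0 h. No library of cells without the tag was analysed here, the labels do not say whether a line is 1 clone, and these files do not measure the loss of EBF1 protein.

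EBF1 is a transcription factor that, with E2A and PAX5, sets up the B cell programme in pro-B cells. When a heavy chain first pairs with the surrogate light chain, the resulting pre-B cell receptor is phosphorylated on its Cd79a and Cd79b tails by SRC family kinases such as LYN and BLK, and SYK docks there and is activated. SYK phosphorylates the adaptor BLNK, which brings BTK and phospholipase C gamma 2 (Plcg2) together, and the lipid and calcium signals that follow activate protein kinase C beta (Prkcb), while VAV1 activates RAC GTPases. DOK3, an inhibitory adaptor, and the phosphatase SHP-1 (Ptpn6) restrain the pathway.

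Start-site windows from RefSeq (GRCm38.p6, 250 bases before to 50 after a start site) were matched for 8 of the 10 genes, in 9 windows; Blk and Lyn had no entry. The 5 windows shown are those that a region called in EBF1-dTAG_N overlapped: it fell at Plcg2 (chr8:117498025-117498324, plus strand), Ptpn6 (chr6:124738660-124738959, minus strand), Dok3 (chr13:55528489-55528788, minus strand) and Vav1 (chr17:57278850-57279149, plus strand), and rose at the downstream start site of Syk (chr13:52596632-52596931, plus strand). They run 5′ to 3′ on the gene's strand. Capitals mark matches to CCCNNGGG, the core of the EBF1 motif, or to AGGAAG, an ETS core, on either strand; those of Plcg2, Dok3 and Syk hold neither.
Plcg2: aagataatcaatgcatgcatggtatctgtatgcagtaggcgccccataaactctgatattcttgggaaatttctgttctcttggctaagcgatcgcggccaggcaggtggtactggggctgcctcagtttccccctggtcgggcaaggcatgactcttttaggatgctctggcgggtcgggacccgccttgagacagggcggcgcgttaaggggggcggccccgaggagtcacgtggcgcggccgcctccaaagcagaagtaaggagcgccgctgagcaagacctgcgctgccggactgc
Ptpn6: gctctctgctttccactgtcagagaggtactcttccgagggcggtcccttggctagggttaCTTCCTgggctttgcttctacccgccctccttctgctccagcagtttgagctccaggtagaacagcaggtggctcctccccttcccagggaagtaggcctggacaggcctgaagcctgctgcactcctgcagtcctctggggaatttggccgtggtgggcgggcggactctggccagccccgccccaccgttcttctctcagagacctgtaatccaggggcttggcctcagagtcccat
Dok3: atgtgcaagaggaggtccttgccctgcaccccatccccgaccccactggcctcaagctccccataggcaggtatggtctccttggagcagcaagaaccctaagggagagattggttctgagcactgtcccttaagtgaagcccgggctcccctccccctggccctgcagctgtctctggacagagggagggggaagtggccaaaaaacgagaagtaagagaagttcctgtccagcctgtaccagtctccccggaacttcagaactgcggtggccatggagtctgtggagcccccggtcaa
Vav1: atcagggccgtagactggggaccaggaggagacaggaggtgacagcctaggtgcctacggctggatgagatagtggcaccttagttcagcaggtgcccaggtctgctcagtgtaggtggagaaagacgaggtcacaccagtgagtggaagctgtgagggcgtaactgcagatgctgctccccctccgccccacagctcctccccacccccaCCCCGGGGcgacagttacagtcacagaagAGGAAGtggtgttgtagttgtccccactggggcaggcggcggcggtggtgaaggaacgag
Syk: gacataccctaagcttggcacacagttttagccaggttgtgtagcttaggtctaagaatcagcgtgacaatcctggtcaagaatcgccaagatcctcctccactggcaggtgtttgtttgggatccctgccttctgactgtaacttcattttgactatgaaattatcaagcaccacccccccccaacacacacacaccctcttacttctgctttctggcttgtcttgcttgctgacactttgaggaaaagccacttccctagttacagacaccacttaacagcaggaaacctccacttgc
The core CCCNNGGG was in 1 of the 9 windows, starting at -39 from the Vav1 start site, against 13.7% of 32817 windows of the same length. With a T before it and an A after it, the longer EBF1 motif, it was in 0 of the 9 and in 0.905% of all windows. AGGAAG was in 4 of the 9 (Ptpn6, Vav1, Blnk and Btk) and in 35.4% of all windows. These counts describe the letters of the windows only. Most regions that fell at these genes lay outside the windows, and their sequences were not analysed here.

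Accessibility after dTAG-13 fell at 1 to 3 regions of 7 of these genes in EBF1-dTAG_C and at 1 to 8 regions of each in EBF1-dTAG_N; 100 and 61 of the 113 regions were not called. At an adjusted p under 0.05 in the authors' deposited table of EBF1-dTAG_C, 12 of the 113 regions fell (10.6%), where 6.62% of all regions fell. These falls belonged to 7 genes, with 3 regions each at Plcg2 and Prkcb, 2 at Syk and 1 each at Blk, Lyn, Vav1 and Dok3. Btk, Blnk and Ptpn6 had 0 called regions in this line. Of all genes with a region, 16.5% had a falling and 1.01% a rising one, but the median gene had 2 regions and the median member 9.5, so the counts of genes are not read against those shares. A single region rose (0.885%, against 0.308% of all regions), 29.6 kb outside Lyn. With a log2 fold change of -1 or less as well, 10 of the 113 fell, against 6.13% of all regions. In the authors' deposited table of EBF1-dTAG_C the median abundance was 3.40 log2 CPM for member regions and 2.42 for all regions. For EBF1-dTAG_N the deposited medians were 3.09 and 2.47. The shares given here and below were not matched for abundance.

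By the authors' deposited table of EBF1-dTAG_N, 34 of the 113 regions fell (30.1%), where 18.5% of all regions fell. Each of the 10 genes had at least 1 falling region (34.4% of all genes): 8 at Prkcb, 5 each at Lyn and Plcg2, 4 each at Syk and Vav1, 3 at Blnk, 2 at Dok3 and 1 each at Blk, Btk and Ptpn6. Rises were called at 18 regions of 7 genes (41.4% of all genes), which is 15.9% of the regions, below the share of all regions that rose (18.8%). The median gene had 2 regions in this line and the median member 13.5, so the counts of genes are not read against the shares of all genes. With a log2 fold change of -1 or less as well, 23 fell, against 14.9% of all regions. The EBF1-dTAG_N test pooled its spread over regions, with 110400 denominator degrees of freedom against 11.18 in EBF1-dTAG_C, so its p-values are smaller for the same F and are not comparable between lines. With F read against the EBF1-dTAG_C degrees of freedom, 29 member regions fell (16.3% of all regions) and 11 rose (12.4%).

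The scale of the folds moved the balance of the calls. The median log2 fold change of all regions in the authors' deposited tables was 0.09 for EBF1-dTAG_C and 0.17 for EBF1-dTAG_N, and the medians of the member regions were -0.02 and 0.01. After centring on the median of all regions, EBF1-dTAG_N had 36 falls (20.8% of all regions) and 7 rises (7.98%), so that falls were 83.7% of calls in place of 65.4%. Centring gave EBF1-dTAG_C 14 falls (7.39%) and 0 rises (0.162%). All 34 falls of EBF1-dTAG_N were called on the centred scale as well, and 7 of its 18 rises. The falls that centring added were at Syk and Blnk in EBF1-dTAG_N and at Blk and Lyn in EBF1-dTAG_C.

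**Figure D1:**
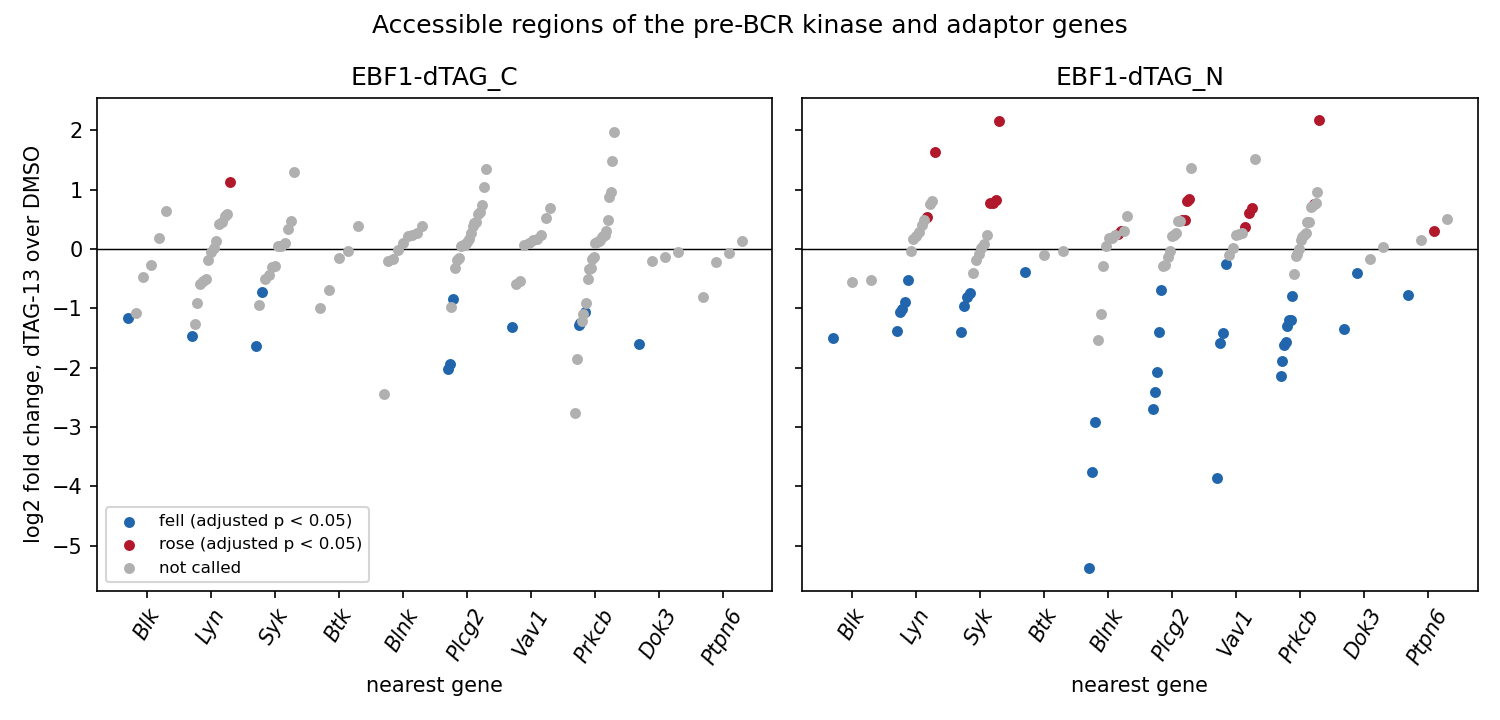
Log2 fold change (dTAG-13 over DMSO, authors' deposited tables) of every region of the 10 genes, with EBF1-dTAG_C in 1 panel and EBF1-dTAG_N in the other. Each point is 1 region, coloured by its call at a deposited adjusted p under 0.05; the called falls reach -2.02 in EBF1-dTAG_C and -5.38 in EBF1-dTAG_N.

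The median called fall was smaller at member regions than over all regions. It was, by the authors' deposited tables, -1.30 on the log2 scale for EBF1-dTAG_C (2.46-fold lower) and -1.36 for EBF1-dTAG_N (2.57-fold lower), against -2.26 and -2.04 for all falling regions. Falling member regions had a median abundance of 4.71 log2 CPM (EBF1-dTAG_C) and 4.28 (EBF1-dTAG_N) in the authors' deposited tables, where all falling regions had 3.13 and 2.74. Complete loss of the peak, with both DMSO lists holding one and no dTAG-13 list, was seen at 4 of the 12 falls of EBF1-dTAG_C (33.3%) and at 8 of the 34 of EBF1-dTAG_N (23.5%). For all falling regions these shares were 54.0% and 45.7%. No test was made of these differences. A peak missing from a list does not mean that accessibility was lost. Called or not, 9 member regions of EBF1-dTAG_C and 11 of EBF1-dTAG_N had this pattern, against 4590 and 5671 of all regions. A Plcg2 region of EBF1-dTAG_N (chr8:117527612-117527878) had it at -0.13 on the log2 scale by the authors' deposited table (adjusted p = 0.497).

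The SRC family kinases stand at the head of the pathway. Blk, the one most restricted to the B lineage, had 1 falling region, inside the gene (chr14:63377346-63377820 in EBF1-dTAG_C). Its summit fold enrichment over the background of the same library, the authors' value for each peak, was 21.3 and 15.7 with DMSO and 10.4 and 12.3 with dTAG-13 in EBF1-dTAG_C. In EBF1-dTAG_N it was 8.41 and 12.4 with DMSO and 5.14 and 4.50 with dTAG-13. Both dTAG-13 values lay under both DMSO values in each line. Here and below, summit values come from the libraries that gave the calls, so groups that lie apart at a called region are not further evidence. A list without a peak was read as lower. The fall was, by the authors' deposited tables, 2.25-fold in EBF1-dTAG_C (adjusted p = 0.00358) and 2.82-fold in EBF1-dTAG_N (adjusted p = 6.86e-07). A Blk region 2.46 kb outside the gene stood, by the authors' deposited table of EBF1-dTAG_C, at -1.08 on the log2 scale and missed the threshold (adjusted p = 0.0516). Its EBF1-dTAG_N counterpart stood, by the authors' deposited table, at -0.56 (adjusted p = 0.351).

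Lyn, the SRC family kinase that both starts and limits receptor signals, had 15 regions in each line. The region called in both (chr4:3685225-3685498 in EBF1-dTAG_C) had peaks with DMSO in EBF1-dTAG_C, at 9.08 and 5.79 fold enrichment, and none with dTAG-13. In EBF1-dTAG_N it was at 8.76 and 8.08 with DMSO and 6.41 in dTAG-13 replicate 1, with no peak in replicate 2. By the authors' deposited tables it was 2.75-fold lower in EBF1-dTAG_C (adjusted p = 0.0210) and 2.08-fold lower in EBF1-dTAG_N (adjusted p = 0.00249). The other 4 falls of EBF1-dTAG_N, by the authors' deposited tables, ranged from -0.53 to -1.38 on the log2 scale, and the overlapping EBF1-dTAG_C regions, none of them called, from -0.55 to -1.27. All 5 falls lay inside the gene. The Lyn region with the smallest adjusted p in EBF1-dTAG_N lay 28.8 kb outside it (chr4:3649016-3649477) and had the opposite direction. By the authors' deposited tables it was 1.45-fold higher in EBF1-dTAG_N (adjusted p = 2.26e-09) and at 0.43 on the log2 scale in EBF1-dTAG_C (adjusted p = 0.385). Its enrichment of 19.8 and 19.9 with DMSO and 17.5 and 18.9 with dTAG-13 in EBF1-dTAG_N was not higher after dTAG-13. The EBF1-dTAG_C rise (chr4:3648377-3648531), put by the authors' deposited table at 2.17-fold (adjusted p = 0.0486), rested on a peak in 1 of 4 lists and was not called on the centred scale (adjusted p = 0.0673). The largest Lyn rise of EBF1-dTAG_N (chr4:3656095-3656245), put by the authors' deposited table at 3.10-fold (adjusted p = 0.0479), also rested on a peak in 1 of 4 lists and was not called when centred (adjusted p = 0.101).

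Syk, the kinase that relays the receptor's signal to BLNK, had falling regions just inside the gene and no called region over its upstream start site on the deposited scale. The region there (chr13:52582969-52583699 in EBF1-dTAG_C) was in the authors' deposited tables at 0.04 on the log2 scale for EBF1-dTAG_C (adjusted p = 0.935) and -0.08 for EBF1-dTAG_N (adjusted p = 0.496). Centred, the EBF1-dTAG_N region was at -0.25 and called (adjusted p = 0.0186); its summit enrichment was 7.70 and 8.34 with DMSO and 11.3 and 8.87 with dTAG-13, higher in both dTAG-13 libraries. At 1.45 kb downstream (chr13:52584781-52584988) EBF1-dTAG_C had DMSO peaks at 4.39 and 6.72 fold enrichment and none with dTAG-13. This region was 3.12-fold lower by the authors' deposited table (adjusted p = 0.00590). In EBF1-dTAG_N a wider region (chr13:52584736-52585468) covered it together with its neighbour. The wider region kept a peak in all 4 lists, at 7.77 and 6.77 with DMSO and 5.99 and 6.38 with dTAG-13, and was 1.76-fold lower by the authors' deposited table (adjusted p = 2.35e-10).

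Both lines also shared a fall 3.51 kb past the downstream start site of Syk (chr13:52600095-52600682 in EBF1-dTAG_C). The enrichment was 16.8 and 16.3 with DMSO and 10.9 and 14.5 with dTAG-13 in EBF1-dTAG_C, and 23.2 and 21.5 against 14.8 and 15.8 in EBF1-dTAG_N. The groups did not overlap in either line, and the authors' deposited tables gave -0.72 (adjusted p = 0.0328) and -0.97 (adjusted p = 4.30e-20) on the log2 scale. The Syk region with the smallest adjusted p in EBF1-dTAG_N lay 16.4 kb before the upstream start site (chr13:52566788-52567330). Its enrichment was 17.7 and 15.9 with DMSO and 11.0 and 9.95 with dTAG-13, and it was 2.65-fold lower by the authors' deposited table (adjusted p = 3.53e-23). The overlapping EBF1-dTAG_C region stood, by the authors' deposited table, at -0.51 on the log2 scale (adjusted p = 0.532). The 4 Syk rises of EBF1-dTAG_N were at the downstream start site, whose window is printed above (1.71-fold by the authors' deposited table, adjusted p = 0.00972), and at 3 regions 63.4 to 79.3 kb outside the gene without counterpart in EBF1-dTAG_C. That at the start site (adjusted p = 0.0624) and 1 of the distal ones (adjusted p = 0.101) were not called on the centred scale. The largest Syk rise, the most distal (chr13:52727946-52728166), was 4.47-fold by the authors' deposited table (adjusted p = 0.00547) and rested on a peak in 1 of 4 lists and an abundance of 0.65 log2 CPM.

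Btk encodes the TEC family kinase that phosphorylates phospholipase C gamma 2. None of its 5 EBF1-dTAG_C regions was called, and the smallest adjusted p in the authors' deposited table was 0.118. In EBF1-dTAG_N 1 of 3 fell, 16.4 kb inside the gene (chrX:134566572-134566991). Its enrichment was 17.5 and 17.3 with DMSO and 11.9 and 11.4 with dTAG-13, and the fall by the authors' deposited table was 1.32-fold (adjusted p = 0.0480). The groups did not overlap, but read against the EBF1-dTAG_C degrees of freedom the call is lost (adjusted p = 0.0994). The start-site regions of Btk were, by the authors' deposited tables, at -0.04 and -0.16 in EBF1-dTAG_C and at -0.09 in EBF1-dTAG_N on the log2 scale, none of them called.

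**Figure D2:**
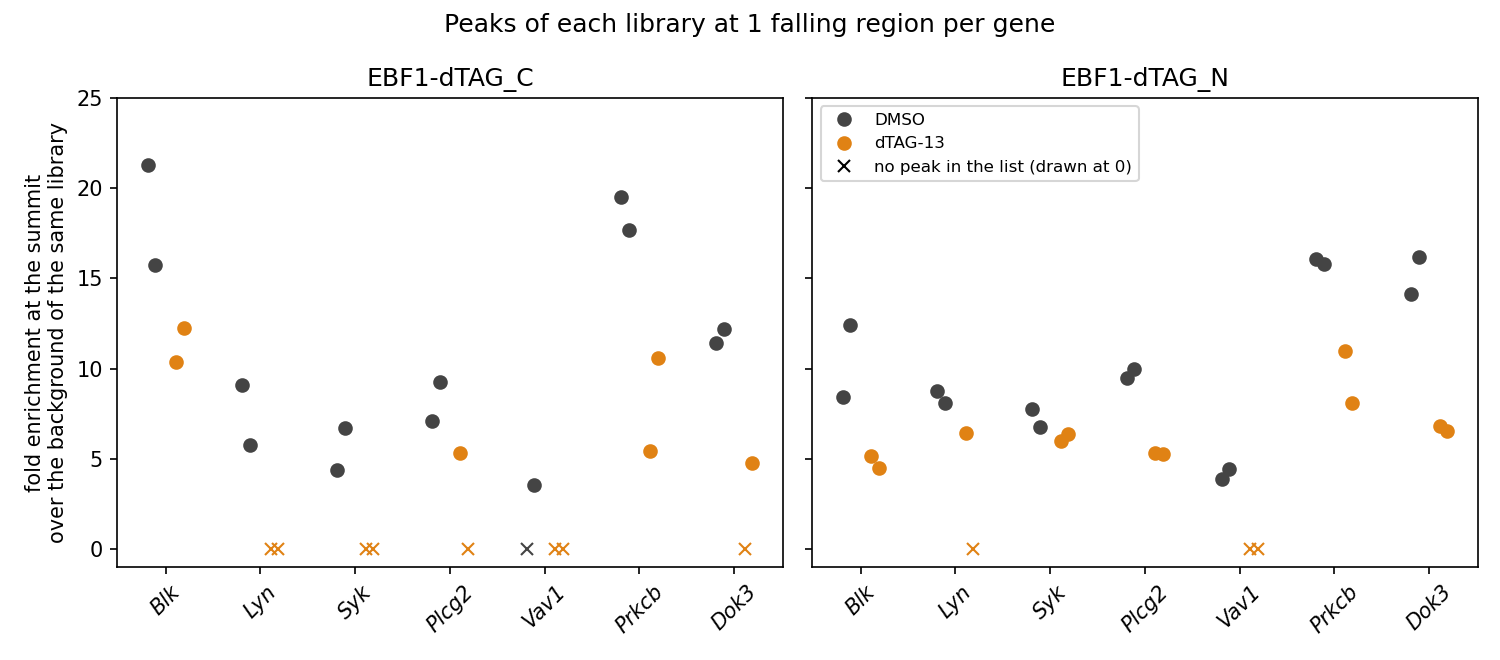
Summit fold enrichment of the peak in each library (y axis, over the background of the same library) at 1 region per gene, the falling region that ranked first by adjusted p in EBF1-dTAG_C and the EBF1-dTAG_N region that overlaps it. A cross at 0 marks a list without a peak. Every dTAG-13 point lies under both DMSO points of its line except at Vav1 in EBF1-dTAG_C, where 1 DMSO list and both dTAG-13 lists had no peak. The regions were picked for their fall in EBF1-dTAG_C, and the overlapping EBF1-dTAG_N regions were called falls as well, each from the libraries drawn here. The separation is thus not a further test in either line. How often the groups lie apart over all regions was not counted.

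Blnk, the adaptor that scaffolds BTK and phospholipase C gamma 2, had falls away from its start site. At the start site (chr19:40994028-40994408 in EBF1-dTAG_N) the enrichment was 11.0 and 11.6 with DMSO and 12.2 and 10.1 with dTAG-13 in EBF1-dTAG_C, and 11.3 and 11.4 against 12.2 and 12.6 in EBF1-dTAG_N. It overlapped between the groups of EBF1-dTAG_C, and in EBF1-dTAG_N that of dTAG-13 was the higher. The authors' deposited tables gave 0.09 (adjusted p = 0.901) and 0.18 (adjusted p = 0.180) on the log2 scale. At 13.3 kb upstream (chr19:41007333-41007636 in EBF1-dTAG_N) all DMSO lists of both lines held a peak and none of the dTAG-13 lists did. The DMSO enrichment there was 15.7 and 14.0 in EBF1-dTAG_N and 5.47 and 5.52 in EBF1-dTAG_C. The region was, by the authors' deposited tables, 13.5-fold lower in EBF1-dTAG_N (adjusted p = 5.87e-17), and in EBF1-dTAG_C it stood at -2.44 on the log2 scale, not called (adjusted p = 0.114), with an abundance of 0.66 log2 CPM.

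Further falling Blnk regions were found in EBF1-dTAG_N alone. At 15.9 kb upstream (chr19:41009958-41010255) a region with DMSO peaks at 4.24 and 4.89 fold enrichment was 7.57-fold lower by the authors' deposited table (adjusted p = 3.48e-14). Inside the gene, 18.8 kb from the start site (chr19:40975364-40975578), the authors' deposited table gave -5.38 on the log2 scale (adjusted p = 4.11e-08), the lowest value of any called member region. Its abundance was 1.13 log2 CPM, so the fitted fold rests on few reads. Both regions had a peak with DMSO in both EBF1-dTAG_N libraries and none with dTAG-13. EBF1-dTAG_C had no region at either place and no peak there in its 4 lists, so the lines could not be compared. The 2 Blnk rises of EBF1-dTAG_N, put by the authors' deposited table at 1.23-fold and 1.19-fold, were not called on the centred scale.

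Plcg2, the phospholipase that produces the second messengers of the receptor, had the falls with the smallest adjusted p of the 10 genes in both lines, near its start site. At 0.986 kb downstream (chr8:117498992-117499531 in EBF1-dTAG_C) the enrichment in EBF1-dTAG_C was 7.08 and 9.25 with DMSO and 5.33 in dTAG-13 replicate 1, with no peak in replicate 2. In EBF1-dTAG_N it was 9.49 and 9.97 with DMSO and 5.32 and 5.26 with dTAG-13. The groups did not overlap, and by the authors' deposited tables the region was 3.82-fold lower in EBF1-dTAG_C (adjusted p = 0.000236) and 5.35-fold lower in EBF1-dTAG_N (adjusted p = 1.10e-94). At 3.22 kb upstream (chr8:117494872-117495241) the DMSO peaks of EBF1-dTAG_C, at 11.0 and 14.0, had no counterpart with dTAG-13. EBF1-dTAG_N kept a peak there, at 6.77 and 6.36 after 7.76 and 8.61 with DMSO. The authors' deposited tables put this fall at 4.06-fold (adjusted p = 0.000270) and 4.22-fold (adjusted p = 1.45e-53).

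At the Plcg2 start site itself the tables divided the chromatin differently. In the authors' deposited table of EBF1-dTAG_C the region over the start site (chr8:117498136-117498396) was at -0.15 on the log2 scale (adjusted p = 0.824), and its neighbour 0.389 kb downstream fell 1.79-fold (adjusted p = 0.0185). For EBF1-dTAG_N, the authors' deposited table has a region (chr8:117498141-117498801) that covered both and fell 2.64-fold (adjusted p = 1.69e-49).

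Inside Plcg2, further from the start site, some regions moved the other way. Between 38.8 and 45.7 kb downstream, the authors' deposited table of EBF1-dTAG_N had 3 regions higher by 0.49 to 0.84 on the log2 scale (adjusted p from 4.58e-07 to 0.00232). The overlapping EBF1-dTAG_C regions stood, by the authors' deposited table, at 0.16 to 0.63, none of them called. On the centred scale 2 of the 3 kept their call (adjusted p = 0.000106 and 0.0217) and the other did not (0.0590). Another region, 28.1 kb inside the gene, had an enrichment of 20.6 and 20.8 with DMSO and 15.7 and 17.2 with dTAG-13 in EBF1-dTAG_N and fell 1.62-fold by the authors' deposited table (adjusted p = 1.34e-09). The overlapping EBF1-dTAG_C region was not called, at -0.33 on the log2 scale by the authors' deposited table (adjusted p = 0.475). The largest Plcg2 fall lay 120 kb inside the gene (chr8:117618117-117618367), in EBF1-dTAG_N alone. It had DMSO peaks at 7.81 and 7.85, none with dTAG-13 and an abundance of 0.74 log2 CPM, and it was 6.49-fold lower by the authors' deposited table (adjusted p = 0.00196).

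**Figure D3:**
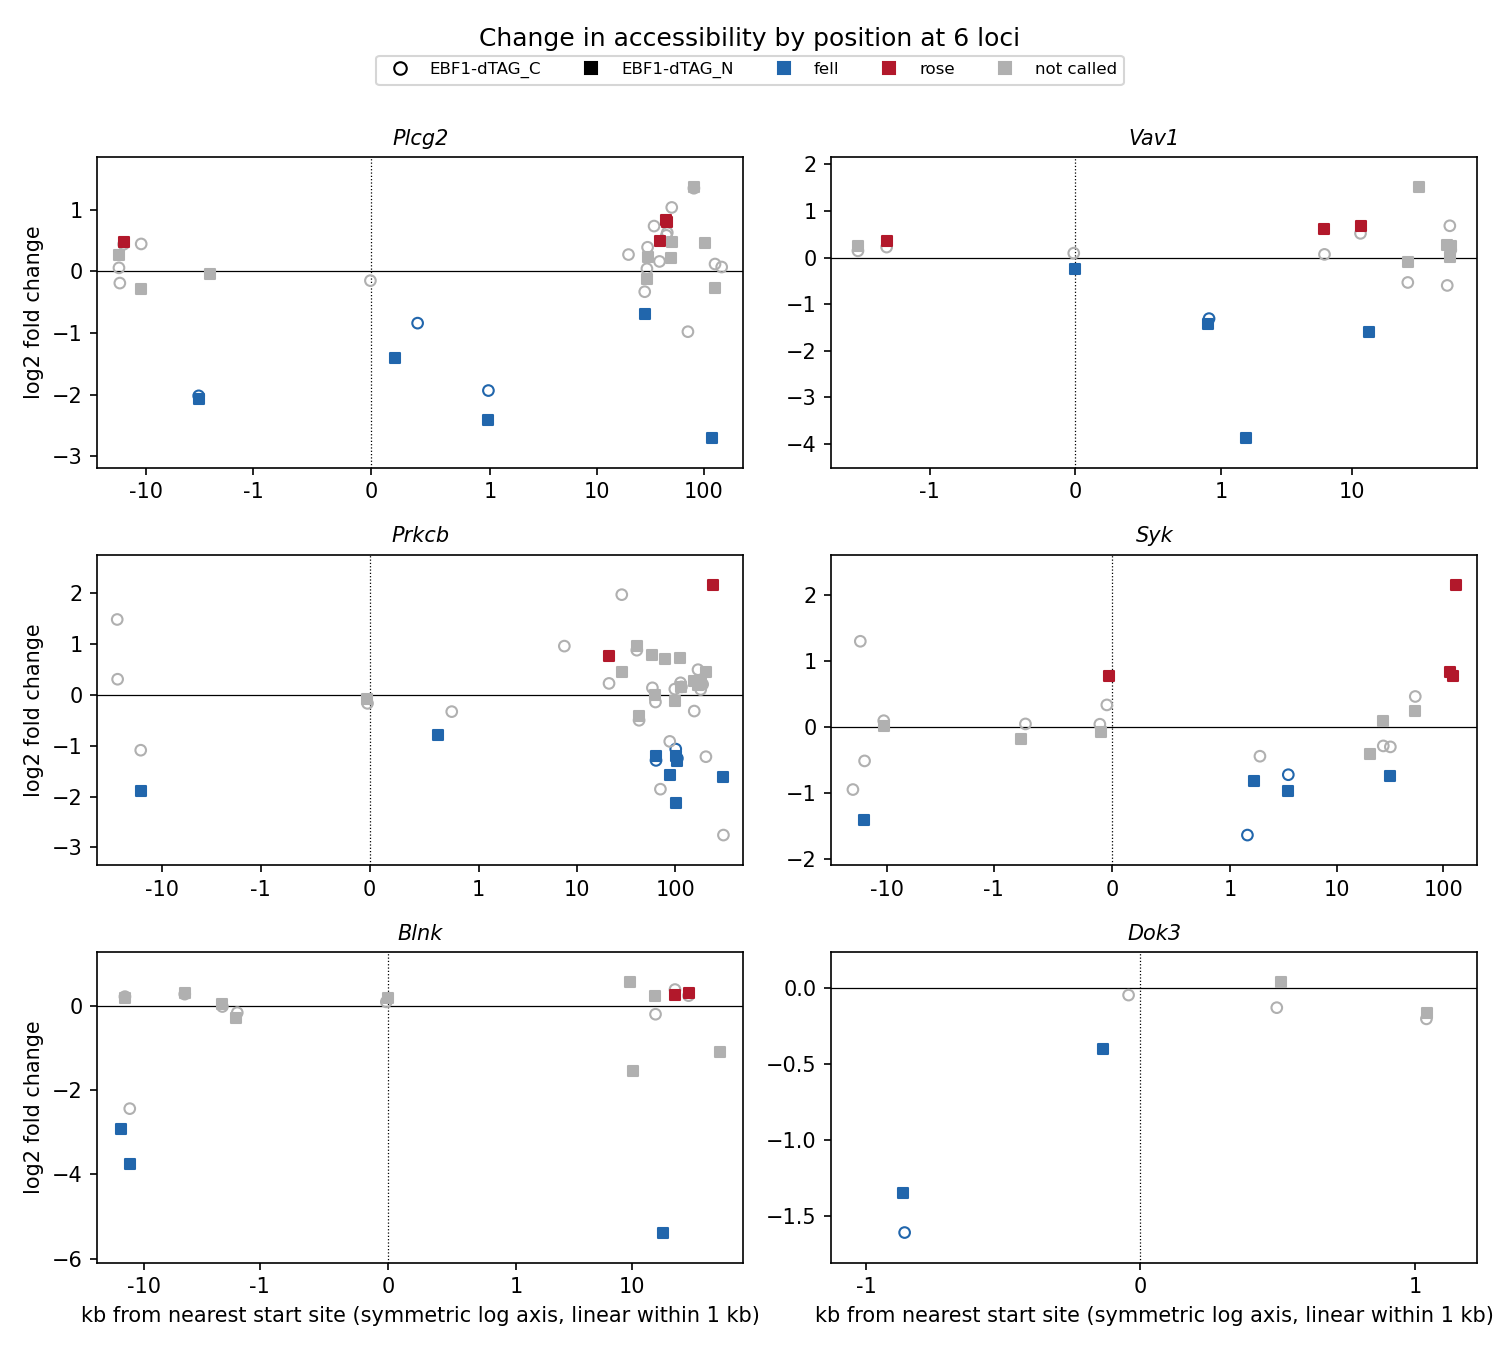
Log2 fold change (y axis, authors' deposited tables) of each region against its distance in kb from the nearest start site of the gene (x axis, symmetric log scale, negative upstream) at Plcg2, Vav1, Prkcb, Syk, Blnk and Dok3. Open circles are EBF1-dTAG_C and filled squares EBF1-dTAG_N; at Plcg2 the regions 3.22 kb upstream and 0.986 kb downstream of the start site fell in both lines, and those uncalled between them were at -0.15 in EBF1-dTAG_C and -0.04 in EBF1-dTAG_N.

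Vav1, the exchange factor for RAC, had 1 falling region in EBF1-dTAG_C and 4 in EBF1-dTAG_N. Those of EBF1-dTAG_N lay at the start site, in the first kilobases of the gene and at 1 region 13.4 kb inside. The region 13.4 kb inside had no counterpart in EBF1-dTAG_C. The region called in both lines lay 0.919 kb downstream of the start site (chr17:57279939-57280099 in EBF1-dTAG_C). Its peaks were of low enrichment and few, with one of 3.53 fold enrichment in DMSO replicate 2 of EBF1-dTAG_C and none in the other 3 lists, and with 3.89 and 4.42 in the DMSO lists of EBF1-dTAG_N and no peak with dTAG-13. The authors' deposited tables gave falls of 2.48-fold (adjusted p = 0.0426) and 2.68-fold (adjusted p = 1.77e-14). The largest Vav1 fall lay 1.57 kb downstream (chr17:57280439-57280897), where EBF1-dTAG_N had DMSO peaks at 6.53 and 6.72 and none with dTAG-13. It was 14.5-fold lower by the authors' deposited table (adjusted p = 3.15e-82). No EBF1-dTAG_C list had a peak at that position and its table has no region there, so the lines could not be compared.

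At the Vav1 start site, whose window holds the CCCNNGGG match, the authors' deposited tables gave 0.10 on the log2 scale for EBF1-dTAG_C (adjusted p = 0.838) and -0.25 for EBF1-dTAG_N (adjusted p = 0.0446). The enrichment in EBF1-dTAG_N was 11.3 and 8.94 with DMSO and 9.60 and 11.7 with dTAG-13, which overlap. Read against the EBF1-dTAG_C degrees of freedom the EBF1-dTAG_N call is lost (adjusted p = 0.0952). The Vav1 region of highest abundance, 11.6 kb downstream (chr17:57290339-57291133), was, by the authors' deposited tables, higher by 1.61-fold in EBF1-dTAG_N (adjusted p = 1.13e-14) and at 0.52 on the log2 scale in EBF1-dTAG_C (adjusted p = 0.0759). Its enrichment of 16.5 and 13.5 with DMSO and 14.7 and 14.5 with dTAG-13 in EBF1-dTAG_N did not separate the groups. The other Vav1 rises of EBF1-dTAG_N were not called on the centred scale (adjusted p = 0.250 and 0.138).

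Prkcb, which encodes the protein kinase C that links the receptor to NF-kB, had the most regions, 26 in EBF1-dTAG_C and 24 in EBF1-dTAG_N, over a span of 345.3 kb. Its shared falls lay deep in the gene, at 63.7, 101 and 105 kb downstream of the start site. At the first (chr7:122352562-122353121 in EBF1-dTAG_C) the enrichment was 19.5 and 17.7 with DMSO and 5.45 and 10.6 with dTAG-13 in EBF1-dTAG_C, and 16.1 and 15.8 against 11.0 and 8.12 in EBF1-dTAG_N. The groups did not overlap in either line. The authors' deposited tables gave falls of 2.44-fold (adjusted p = 0.000369) and 2.31-fold (adjusted p = 1.19e-34).

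At the second (chr7:122390169-122390533) the groups were apart as well, at 16.7 and 12.1 with DMSO and 9.06 and 8.92 with dTAG-13 in EBF1-dTAG_C. At the third (chr7:122393945-122394408) they overlapped, at 10.1 and 8.43 against 7.07 and 9.39. On the log2 scale the authors' deposited tables gave -1.07 (adjusted p = 0.00268) and -1.20 (adjusted p = 1.47e-29) at the second for EBF1-dTAG_C and EBF1-dTAG_N, and -1.25 (adjusted p = 0.00223) and -1.30 (adjusted p = 3.50e-24) at the third. Next to the second, EBF1-dTAG_N had a region without counterpart in EBF1-dTAG_C (chr7:122390792-122391033), with DMSO peaks of 3.58 and 4.34 and a 4.39-fold fall by the authors' deposited table (adjusted p = 4.18e-26). The start-site region of Prkcb was called in neither line (-0.17 and -0.09 in the authors' deposited tables), while 0.630 kb downstream EBF1-dTAG_N fell 1.73-fold by the authors' deposited table (adjusted p = 2.22e-10). The EBF1-dTAG_C region overlapping that fall was not called, at -0.33 on the log2 scale by the authors' deposited table (adjusted p = 0.503). Of the 2 Prkcb rises of EBF1-dTAG_N, the authors' deposited table put one at 0.76 on the log2 scale, not called when centred (adjusted p = 0.0505), and one at 2.17 (chr7:122532419-122532692), which rested on a peak in 1 of 4 lists and an abundance of 0.87 log2 CPM.

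The inhibitory genes Dok3 and Ptpn6 had 4 regions each per line. Dok3 had 1 region called in both lines, 0.859 kb upstream of the start site of the printed window and inside the gene span (chr13:55529246-55529548 in EBF1-dTAG_C). EBF1-dTAG_C had DMSO peaks of 11.4 and 12.2 there and 1 dTAG-13 peak of 4.78, in replicate 2. In EBF1-dTAG_N the enrichment was 14.1 and 16.2 with DMSO and 6.84 and 6.52 with dTAG-13. The groups were apart in both lines, and the authors' deposited tables gave falls of 3.05-fold (adjusted p = 0.000546) and 2.55-fold (adjusted p = 9.55e-20). Over the Dok3 start site the authors' deposited tables gave a 1.32-fold fall for EBF1-dTAG_N (adjusted p = 0.0158) and -0.05 on the log2 scale for EBF1-dTAG_C (adjusted p = 0.958). Read against the EBF1-dTAG_C degrees of freedom that fall is lost (adjusted p = 0.0547).

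Ptpn6 had its fall at the start site. The region (chr6:124738556-124738951 in EBF1-dTAG_N) had DMSO peaks at 6.84 and 6.47 in EBF1-dTAG_N and 1 dTAG-13 peak at 4.53, in replicate 1. In EBF1-dTAG_C the DMSO peaks were at 5.74 and 5.87, with none after dTAG-13. By the authors' deposited tables it was 1.71-fold lower in EBF1-dTAG_N (adjusted p = 5.06e-06) and at -0.80 on the log2 scale in EBF1-dTAG_C, short of the threshold (adjusted p = 0.0961). Its region of highest abundance, 8.53 kb inside the gene, was called in neither line (-0.06 and 0.15 in the authors' deposited tables). The Ptpn6 rise of EBF1-dTAG_N, put by the authors' deposited table at 1.23-fold (adjusted p = 0.0205), was not called on the centred scale.

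Regions over start-site windows were counted apart. Member regions were set against the windows of their own gene only, and all regions against the windows of every gene. Of 10 such member regions in the authors' deposited table of EBF1-dTAG_C, 0 fell (1.34% of all such regions) and 0 rose (0.0853%). Of 9 in the authors' deposited table of EBF1-dTAG_N, 4 fell (4.24% of all such regions) and 1 rose (32.3%); 2 of the 4 falls, at Vav1 and Dok3, are those lost with the EBF1-dTAG_C degrees of freedom. Outside the windows, at the 8 genes that have one, 10 of 82 regions fell in EBF1-dTAG_C (12.2%, against 7.57% of all regions) and 0 rose (0.348%). In EBF1-dTAG_N 24 of 86 fell (27.9%, against 20.9%) and 15 rose (17.4%, against 16.5%).

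Of the 92 region pairs that overlapped between the tables, 11 fell in both lines (7.98% of all pairs) and 0 rose in both (0.306%). All 12 falls of EBF1-dTAG_C overlapped a falling region of EBF1-dTAG_N (95.9% for all regions), and 12 of the 34 falls of EBF1-dTAG_N, 35.3%, overlapped one of EBF1-dTAG_C (33.7% for all regions). Of the 28 paired falls of EBF1-dTAG_N, 27 had a negative EBF1-dTAG_C fold in the authors' deposited tables, and its 14 paired rises had 14 positive ones; over all pairs these shares were 97.5% and 90.4%. No pair was called in opposite directions, nor was any of the 42803 pairs of all regions (0.00%). The folds of the lines in the authors' deposited tables correlated across the member pairs with Pearson's r of 0.835 and Spearman's rho of 0.798 (n = 92 pairs), a description of regions that share libraries and, within a gene, a locus. Over all pairs r was 0.84 and rho 0.645.

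The difference between the lines was tested approximately, from the standard errors that F and fold imply. It passed the adjusted threshold at 0 of 92 member pairs and at 0 of all 42803 pairs (0.00%), and an unadjusted p under 0.05 was found at 2 of the 92 (2.17%) and at 4.0% of all pairs. Of these, the Syk region 16.4 kb before the upstream start site was lower in EBF1-dTAG_N by -0.89 on the log2 scale (95% interval -1.70 to -0.08). The Plcg2 region over the start site, set against its narrower neighbour in EBF1-dTAG_C, differed by -0.56 (95% interval -1.02 to -0.10). Both had an adjusted p of 0.994. The median standard error of a difference was 0.34 on the log2 scale, and the result does not show that the lines responded alike.

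**Figure D4:**
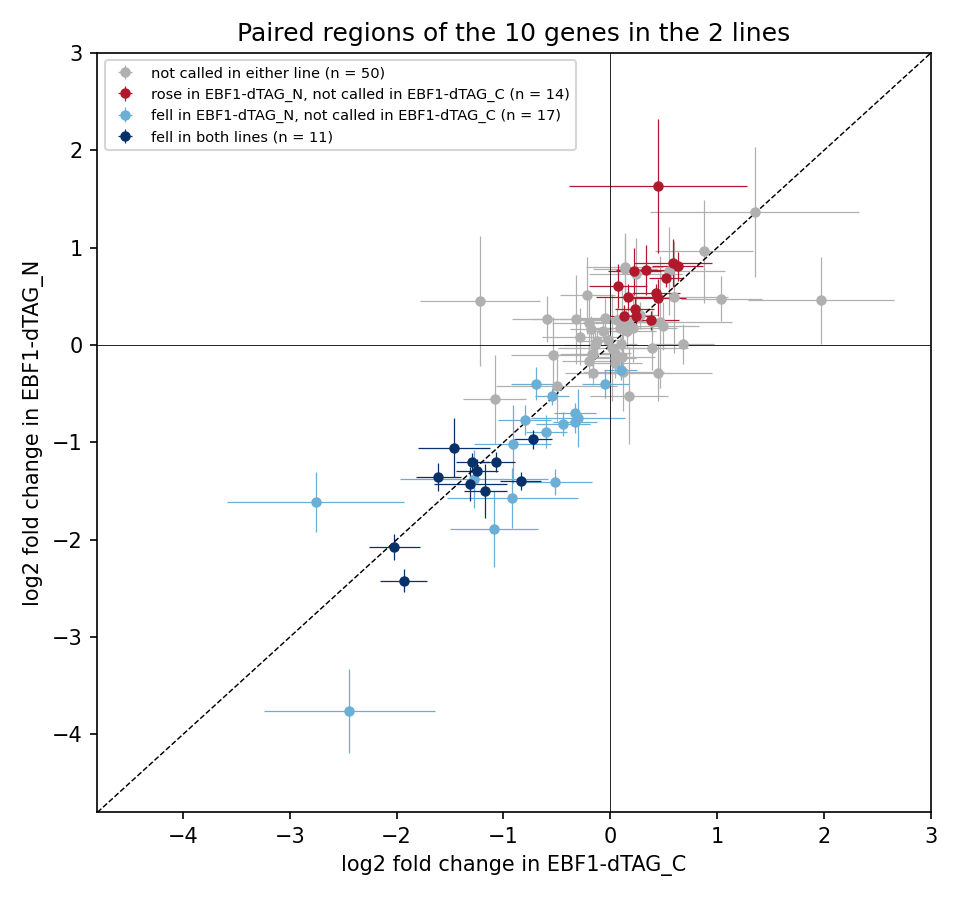
Log2 fold change of the 92 paired regions in EBF1-dTAG_C (x axis) and EBF1-dTAG_N (y axis), from the authors' deposited tables, with bars of 1 approximate standard error and the line of equality dashed. The 11 pairs that fell in both lines and the 17 that fell in EBF1-dTAG_N alone lie on the lower left, apart from the Vav1 start site at 0.10 in EBF1-dTAG_C; 14 pairs rose in EBF1-dTAG_N and 50 were called in neither line.

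Of the 21 member regions found in the EBF1-dTAG_N table alone, 6 fell and 4 rose, where 24.2% of all regions found in that table alone fell and 8.11% rose. Of the 17 in the EBF1-dTAG_C table alone, 0 fell and 1 rose, where 1.00% of all such regions fell and 0.171% rose. The 6 falls were at Vav1 and Blnk with 2 each and at Prkcb and Plcg2 with 1 each. At all 6 both DMSO libraries of EBF1-dTAG_N had a peak. None of the 4 EBF1-dTAG_C lists did, but this held for all 21 regions, called or not. They were selected for having no overlapping region in EBF1-dTAG_C.

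Peak lists gave values per library. At member regions 86 and 90 peaks were called with DMSO in EBF1-dTAG_C and 72 and 79 with dTAG-13. In EBF1-dTAG_N there were 91 and 92 with DMSO and 83 and 85 with dTAG-13. The means were 88.0 ± 2.83 (SD, n = 2) against 75.5 ± 4.95 (SD, n = 2), a change of -14.2%, and 91.5 ± 0.707 (SD, n = 2) against 84.0 ± 1.41 (SD, n = 2), a change of -8.2%. Both dTAG-13 lists lay below both DMSO lists in each line, and the two-sided exact permutation test gave p = 0.333, the smallest that 2 against 2 libraries allow. The whole lists held 34202 to 42139 peaks, fewer with dTAG-13 in both lines. Cut to the same length by rank, the lists gave a mean of 75.5 member peaks in both groups of EBF1-dTAG_C, a change of 0%, and a change of -3.659% in EBF1-dTAG_N.

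Other genes of the pathway were taken from a list of 40 that holds receptor chains, coreceptors, PI3 kinase genes, further kinases and adaptors. In the authors' deposited table of EBF1-dTAG_C, 23 of 39 genes with a region had a falling one and 0 a rising one, and 43 of their 319 regions fell (13.5%, against 6.62% of all regions). In the authors' deposited table of EBF1-dTAG_N, 30 of 38 genes had a falling and 24 a rising region, with 79 falls (24.8%, against 18.5% of all regions) and 70 rises (22.0%, against 18.8%) among 318 regions. These genes have several regions each, so their counts are not read against the shares of all genes with a falling region, 16.5% and 34.4%. The smallest adjusted p of EBF1-dTAG_C was at Csk, the kinase that switches SRC family kinases off. A region inside Csk (chr9:57639130-57639479) was, by the authors' deposited tables, 8.56-fold lower in EBF1-dTAG_C (adjusted p = 3.06e-06) and 9.59-fold lower in EBF1-dTAG_N (adjusted p = 7.98e-175). In the authors' deposited table of EBF1-dTAG_C the next were Vpreb2 and Igll1, both of the surrogate light chain, Inpp5d, the lipid phosphatase SHIP-1, and the PI3 kinase gene Pik3cd, at -2.35, -2.92, -1.93 and -2.25 on the log2 scale (adjusted p from 3.18e-06 to 6.33e-05).

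The label of the cells was checked by peaks within 5 kb of marker genes, since expression was not measured. All 8 B lineage genes had a peak in each of the 8 lists. So did 3 to 4 of 6 T cell genes, 2 to 5 of 6 myeloid genes and 2 to 4 of 4 erythroid genes, so the presence of a peak does not separate the lineages. ATAC-seq on bulk cells cannot tell fewer cells with an open region from less opening per cell.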

How the data were processed

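ATAC-seq of 8 libraries in 4 groups was analysed from the deposited files. The submitters' processing notes name edgeR 3.32.0, MACS2 2.2.7.1, deepTools 3.3.2, Bowtie2 2.3.5.1, SAMtools 1.10 and the build GRCm38 (mm10), without the role of each. Read filters, the Tn5 shift and library scaling were not stated, and the depth in reads is unknown.

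The deposited peak lists, 1 per library, hold the authors' score, fold enrichment (a ratio), −log10 p and −log10 q, which describe peaks of that list. The deposited comparison tables, 1 per line, hold the authors' log2 fold change, abundance (log2 CPM), F score, p-value and adjusted p-value of every region. Values of single libraries are not among their columns, and the tests are the authors'. The series' design text calls the 2 libraries of a group biological replicates. Repeated entries (8 and 12) were counted once. Positive folds mean more accessible after dTAG-13: of regions whose peaks were in the DMSO lists only, 92.6% (EBF1-dTAG_C) and 96.7% (EBF1-dTAG_N) had negative folds.

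Regions were assigned to the nearest of 21900 RefSeq protein-coding spans (GRCm38.p6). Starts, counted from 0 in the files, are printed from 1. Tables were paired by largest overlap (at least 1 bp). The approximate standard error was the absolute log2 fold change over the root of F. It served for centring and for the difference between lines (11.18 degrees of freedom, Benjamini-Hochberg over all pairs). The difference test was run on simulated data drawn with these same standard errors. That run could not show whether the standard errors are right, and it did not cover centring. Python 3.11.15 and scipy 1.17.1 were used. The members and lists were chosen with earlier results of these data known. Named by rule were regions with the smallest adjusted p per gene and line, pairs called in both lines and the largest called fall and rise per gene; start-site regions and other named regions were chosen after their values were seen; pathway genes are the first 5 by adjusted p in EBF1-dTAG_C. A motif search in regions needs a genome and was made in start-site windows only.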

Additional observations from a re-analysis of the deposited data

How the results depend on the processing

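The number of falling member regions stayed within 1.5 times of the main count under the alternatives run: 8 to 14 in EBF1-dTAG_C (main count 12), 23 to 36 in EBF1-dTAG_N (34). The 18 rises of EBF1-dTAG_N became 7 on centred folds, 3 with absolute log2 folds of 1 or more, 10 at an adjusted p under 0.01 and 11 with F read against the EBF1-dTAG_C degrees of freedom. The 1 rise of EBF1-dTAG_C was lost (0) on centred folds, at an adjusted p under 0.01 and with gene spans within 20 kb. Shares of all regions are given above for centred folds, for falls of -1 or less and for the EBF1-dTAG_C degrees of freedom. They were not computed for the other settings, so counts under those do not show whether members differed from all regions. The change in peaks at member regions of EBF1-dTAG_N, -8.197%, was -14.53% for peaks whose −log10 q reached 5, -19.33% for those that reached 10 and -3.659% with lists cut to the same length; in EBF1-dTAG_C it went from -14.2% to 0% with lists so cut. Leaving out each library in turn gave -18.18% to -10.23% (EBF1-dTAG_C) and -9.29% to -7.104% (EBF1-dTAG_N). The cause was not tested. Changes of the whole lists at the −log10 q cut-offs were not computed. Pairs that differed between the lines stayed at 0 with a stricter reciprocal overlap and on centred folds, with 1 and 5 pairs at an unadjusted p under 0.05. The motif alternatives for regions were not run.

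The replicate numbers were not shown to pair libraries across the groups. Deviations of same-numbered libraries correlated at -0.201 in EBF1-dTAG_C and at -0.00394 in EBF1-dTAG_N. The peak names of EBF1-dTAG_C carry the numbers 4 and 2 (DMSO) and 1 and 3 (dTAG-13). A pairing of libraries was not excluded. A replicate block cannot alter the mean change when the groups are of equal size. The changes were thus again -14.2% in EBF1-dTAG_C (differences of -14 and -11 peaks) and -8.197% in EBF1-dTAG_N (-8 and -7). Crossing the numbers in EBF1-dTAG_C, chosen after seeing the data, gave -7 and -18 peaks.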
